A study of Rattus norvegicus with 6 samples.

Results

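The genes of 5 secreted plasma proteins, Ambp, Serpinc1, Rbp4, Apoc3 and Fetub, were followed in the renal cortex of rats given N,N'-dinitrosopentamethylenetetramine (DNPT), an N-nitroso compound. The 5 genes were chosen by their own DNPT minus vehicle difference in these 6 samples, together with a comparison with Alb, so their difference between the groups is described here and not tested. They are 5 of the 15645 genes that could be named on the array and are covered by 8 of its 61537 non-control probes. All 5 genes passed the filter on dim probes, and each of the 8 probes was well above background on all 6 arrays. The DNPT group held 3 male Sprague-Dawley (Crl:CD(SD)) rats given 200 mg/kg/day for 4 weeks, and the vehicle group held 3 male rats of the same stock given corn oil for 4 weeks. All animals were bought at 5 weeks of age and kept on a basal diet, and the route of dosing and the time of day of tissue collection are not given in the sources used here. RNA of each renal cortex was labelled with Cy3 and hybridised to its own 1-colour Agilent array. By the scanner files, slide 1 (scan 1) carried DNPT replicate 1 and the 3 vehicle replicates, while slide 2 (scan 2) carried DNPT replicates 2 and 3. Array measures differed between the groups without overlap: 42116 to 43402 probes were well above background on DNPT arrays and 44730 to 45167 on vehicle arrays, 14 to 50 values on DNPT arrays and 2 to 6 on vehicle arrays were set aside as outlier spots, and the 75th percentile of the signal was 953 to 1112 on DNPT arrays and 1164 to 1329 on vehicle arrays. The part of these array differences in the results was not tested.

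Plasma proteins are made mainly by hepatocytes and secreted into the blood. Those small enough to pass the glomerular filter are taken back up by the proximal tubule through the endocytic receptors megalin and cubilin, which is why urinary retinol-binding protein and alpha-1-microglobulin serve as markers of tubular function. Tubule cells also transcribe some of these genes themselves, and liver RNA carried into a kidney sample would raise the same transcripts, so the levels are given rat by rat beside those of Alb, the gene of serum albumin and a marker of liver RNA.

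The bases upstream of the gene start are shown for those of the 5 genes with an entry in the RefSeq promoter table of build GRCr8, because promoter regions can hold motifs of transcription factors shared by liver and proximal tubule. Entries existed for 3 of the 5, Ambp (chr5:81593858-81594107, minus strand), Serpinc1 (chr13:75790308-75790557, plus strand) and Rbp4 (chr1:245313552-245313801, minus strand). Each run below holds the 250 bases before the gene start, written from 5′ to 3′ on the strand of the gene. Capitals mark the nuclear receptor half-site AGGTCA on either strand and TATAAA on the strand of the gene, which do not overlap.
Ambp: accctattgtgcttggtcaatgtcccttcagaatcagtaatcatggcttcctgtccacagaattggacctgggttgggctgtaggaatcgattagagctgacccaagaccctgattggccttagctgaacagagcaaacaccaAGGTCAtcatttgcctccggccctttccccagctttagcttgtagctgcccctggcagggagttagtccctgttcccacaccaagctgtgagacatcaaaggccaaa
Serpinc1: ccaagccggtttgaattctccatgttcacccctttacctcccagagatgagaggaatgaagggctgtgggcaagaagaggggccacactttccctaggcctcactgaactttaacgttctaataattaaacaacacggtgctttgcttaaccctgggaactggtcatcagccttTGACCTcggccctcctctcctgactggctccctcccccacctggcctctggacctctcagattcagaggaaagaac
Rbp4: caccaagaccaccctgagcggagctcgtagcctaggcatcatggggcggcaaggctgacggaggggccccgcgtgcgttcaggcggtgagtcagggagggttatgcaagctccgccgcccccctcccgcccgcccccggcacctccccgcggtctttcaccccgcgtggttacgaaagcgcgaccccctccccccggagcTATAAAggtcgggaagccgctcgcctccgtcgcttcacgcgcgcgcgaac

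The Ambp window held AGGTCA at -107 from the gene start, and the Serpinc1 window held its reverse complement at -76. The Rbp4 window did not hold the half-site, and had TATAAA at -50 and a GC content of 70.8%, against 51.6% for Ambp and 52.8% for Serpinc1. The half-site GTTAAT of the liver-enriched transcription factor HNF1 was also searched on either strand, and none of the 3 windows held it. Among 33469 promoter windows of the same length, 14.1% held the nuclear receptor half-site, 8.06% the TATAAA run and 6.45% the HNF1 half-site. These matches describe the letters only, and binding was not measured.

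The 75th percentile of each array was set to 0 on the log2 scale, and every signal below is given on that scale. That percentile was lower on every DNPT array (953 to 1112) than on any vehicle array (1164 to 1329). The scaling thus raised DNPT signals relative to vehicle signals. Its part in small differences, such as those of Serpinc1 (0.27) and Apoc3 (0.32), and in the summed signals was not tested. Differences are DNPT minus vehicle with the standard error (SE) of limma's fit over all features. Levels of different genes come from different probes and are not compared with each other. Across the 34915 features tested, limma with Benjamini-Hochberg adjustment called 0 (0%) at 0.05, while 4227 had an unadjusted p under 0.05. Without DNPT replicate 1 the count called was 620, and without vehicle replicate 2 it was 3, with 0 of the 5 genes called in either case. Each of the 5 genes had all 3 DNPT values above all 3 vehicle values, a pattern that the choice of the genes fixed and that was found in 11.9% of all features (4157). The opposite order was found in 8.32%. In whole tissue, a different number of expressing cells and a different amount of RNA per cell cannot be told apart.

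**Figure D1:**
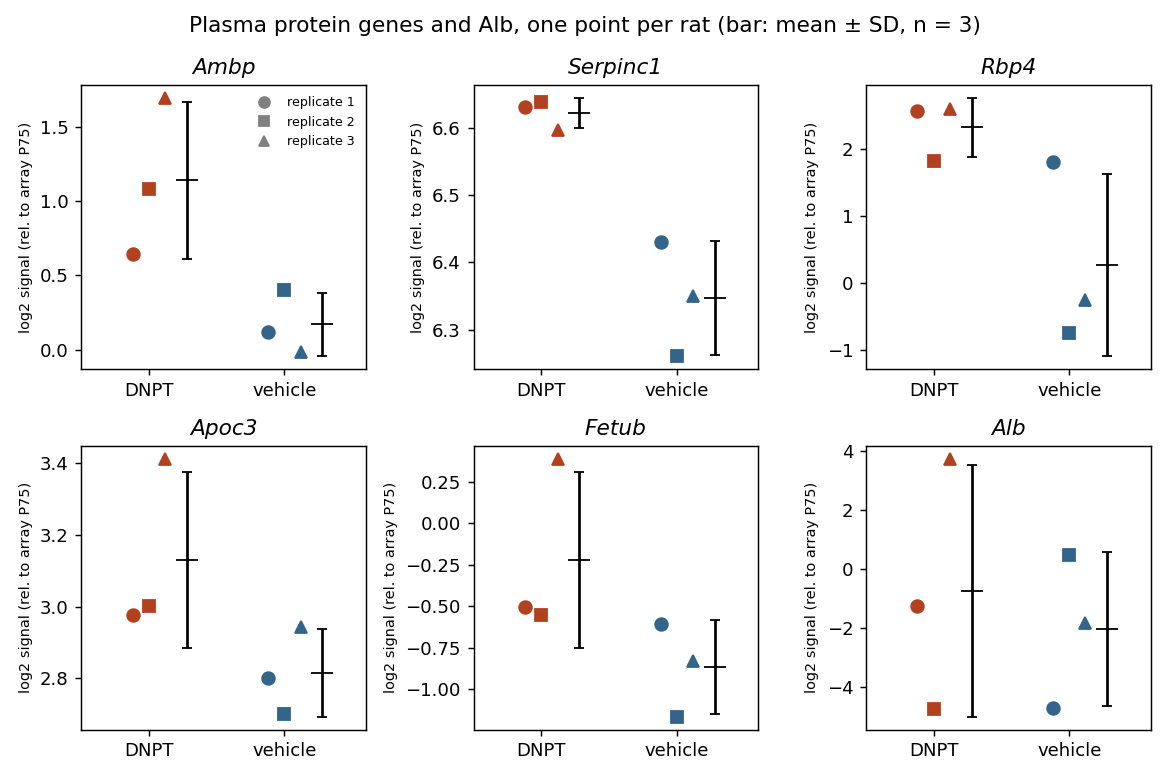
Signal (log2, relative to the 75th percentile of the array) of the 5 genes and Alb in each rat, DNPT at the left and vehicle at the right of each panel, with marker shapes for replicates and bars for mean ± SD (n = 3). Serpinc1 is tight within each group, Rbp4 is spread among vehicle rats, and DNPT replicate 3 is highest for Ambp, Rbp4, Apoc3, Fetub and Alb.

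Ambp encodes a precursor that is cleaved into alpha-1-microglobulin, a lipocalin that binds heme and radicals, and bikunin, a Kunitz protease inhibitor. Its signal was 0.64, 1.08 and 1.70 in DNPT replicates 1, 2 and 3, against 0.12, 0.40 and -0.01 in vehicle replicates 1, 2 and 3. The groups did not overlap, and the DNPT rats covered a wider range (1.05) than the vehicle rats (0.42). The mean was 1.14 ± 0.53 in DNPT rats and 0.17 ± 0.21 in vehicle rats (SD, n = 3 each), a difference of 0.97 (SE 0.28) or 1.96-fold. In DNPT replicate 1, the only DNPT rat on slide 1, the difference from the vehicle mean was 0.47.

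Serpinc1 encodes antithrombin, the serpin that inactivates thrombin and factor Xa and is accelerated by heparin. Its brighter probe read 6.63, 6.64 and 6.60 in DNPT replicates 1, 2 and 3, against 6.43, 6.26 and 6.35 in vehicle replicates 1, 2 and 3. It had the smallest spread of the 5 genes, spanning 0.04 among the DNPT rats and 0.17 among the vehicle rats. The difference was 0.27 (SE 0.08), or 1.21-fold, with a DNPT mean of 6.62 ± 0.02 and a vehicle mean of 6.35 ± 0.08 (SD, n = 3 each). The second probe, with a DNPT mean of 2.66 ± 0.04 and a vehicle mean of 2.44 ± 0.07, gave a difference of 0.23 (SE 0.08), without overlap of the groups. With quantile normalization the difference was 0.17 (SE 0.09), more than 1.5 times smaller, and the groups stayed apart.

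Rbp4 encodes the lipocalin that carries retinol in plasma. The brighter Rbp4 probe read 2.56, 1.82 and 2.59 in DNPT replicates 1, 2 and 3, against 1.80, -0.75 and -0.26 in vehicle replicates 1, 2 and 3. Vehicle replicate 1 lay within 0.02 of the lowest DNPT rat, while the other vehicle rats were far below. The difference of 2.06 (SE 0.69), or 4.16-fold, was the largest of the 5 genes, with a DNPT mean of 2.32 ± 0.44 and a vehicle mean of 0.27 ± 1.35 (SD, n = 3 each). The second Rbp4 probe read 2.04, 1.40 and 2.04 in DNPT rats, against 1.47, -1.41 and -0.56 in vehicle rats. On that probe DNPT replicate 2 was below vehicle replicate 1, so the groups overlapped, as they also did for the gene with quantile normalization, with normexp followed by quantile normalization and with the mean of both probes. Leaving out vehicle replicate 1 gave a difference of 2.83, and leaving out vehicle replicate 2 gave 1.55.

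Apoc3 encodes apolipoprotein C-III, which sits on triglyceride-rich lipoproteins and inhibits lipoprotein lipase. Its brighter probe read 2.98, 3.00 and 3.41 in DNPT replicates 1, 2 and 3, against 2.80, 2.70 and 2.94 in vehicle replicates 1, 2 and 3. DNPT replicates 1 and 2 were just above the highest vehicle rat, with a gap of 0.03, and DNPT replicate 3 stood higher. The difference was 0.32 (SE 0.15), or 1.25-fold, with a DNPT mean of 3.13 ± 0.25 and a vehicle mean of 2.81 ± 0.12 (SD, n = 3 each), and leaving out DNPT replicate 3 reduced it to 0.17. On the second Apoc3 probe, where the difference was 0.29 (SE 0.15), the lowest DNPT rat was 2.31 and the highest vehicle rat was 2.32, so the groups overlapped.

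Fetub encodes fetuin-B, a cystatin-family plasma protein that inhibits astacin metalloproteases such as ovastacin. It read -0.50, -0.55 and 0.39 in DNPT replicates 1, 2 and 3, against -0.60, -1.16 and -0.83 in vehicle replicates 1, 2 and 3. DNPT replicates 1 and 2 lay just above vehicle replicate 1, and DNPT replicate 3 stood apart from all other rats. The difference was 0.64 (SE 0.30), or 1.56-fold, and leaving out DNPT replicate 3 reduced it to 0.34. The DNPT mean was -0.22 ± 0.53 and the vehicle mean -0.87 ± 0.28 (SD, n = 3 each).

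Alb differed more within the groups than between them. Its brightest probe read -1.25, -4.73 and 3.76 in DNPT replicates 1, 2 and 3, against -4.72, 0.48 and -1.84 in vehicle replicates 1, 2 and 3. The DNPT rats spanned 8.49 and the vehicle rats 5.20, and the difference of 1.29 (SE 2.40) did not pass (limma adjusted p = 0.834). Both other Alb probes, which were well above background on 5 and 4 of the 6 arrays, were also highest in DNPT replicate 3, at 0.57 and 0.61, and among vehicle rats in replicate 2, at -3.01 and -2.71. Their differences were 2.40 (SE 1.43) and 1.56 (SE 1.84), larger than that of the brightest probe. On the brightest probe the Alb difference was -0.96 without DNPT replicate 3 and -0.06 without vehicle replicate 1. The other probes were not refitted with a rat left out.

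**Figure D2:**
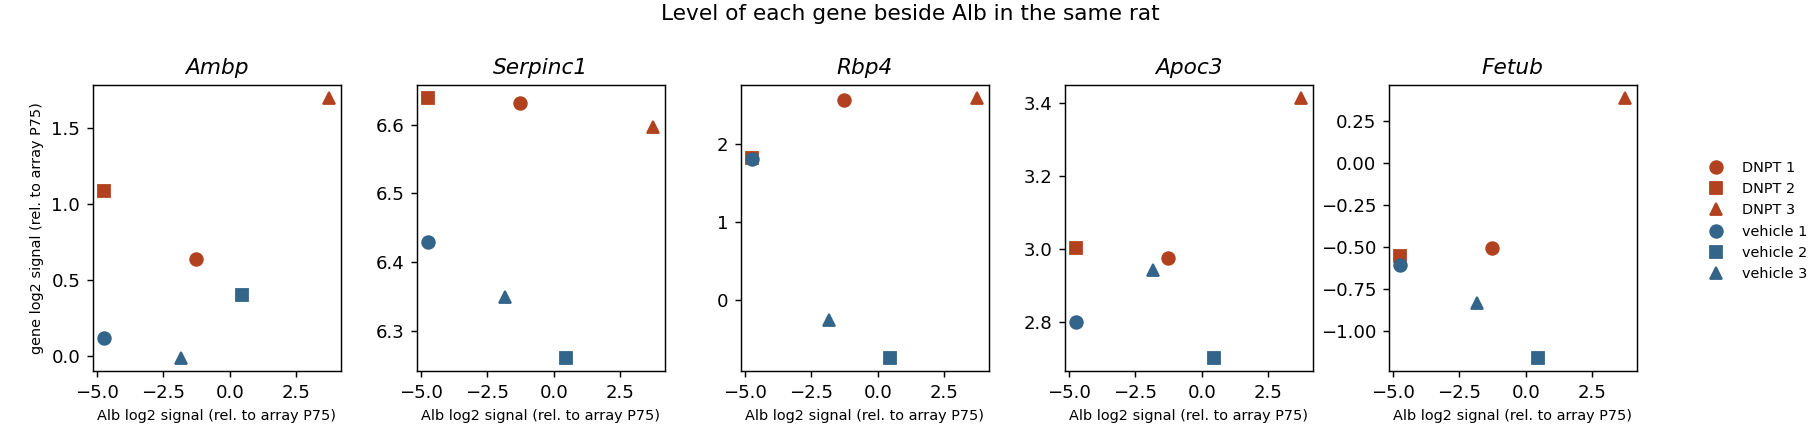
Signal of each gene on the vertical axis against the signal of the brightest Alb probe in the same rat on the horizontal axis, both log2 relative to the 75th percentile of the array, with 1 point per rat. DNPT replicate 2 and vehicle replicate 1 sit at nearly the same signal on the brightest Alb probe (-4.73 and -4.72), and the Rbp4 points of these rats coincide while those of Ambp, Serpinc1 and Apoc3 are apart. That no DNPT point lies below a vehicle point was fixed by the choice of the genes.

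Set beside Alb, the 5 genes did not share 1 order of rats. Relative to the vehicle mean, Alb was at 0.78, -2.71 and 5.79 in DNPT replicates 1, 2 and 3, against -2.69, 2.50 and 0.19 in vehicle replicates 1, 2 and 3. Among the vehicle rats, Serpinc1, Rbp4 and Fetub ran in the opposite order to Alb, being highest in replicate 1 and lowest in replicate 2. Ambp was highest in vehicle replicate 2, as was Alb, and Apoc3 was highest in vehicle replicate 3. DNPT replicate 2, with the lowest signal of all 6 rats on the brightest Alb probe, had differences from the vehicle mean of 0.91 for Ambp, 0.29 for Serpinc1, 1.55 for Rbp4, 0.19 for Apoc3 and 0.32 for Fetub. Vehicle replicate 1, nearly equal to it on that probe, had -0.05 for Ambp, 0.08 for Serpinc1, 1.54 for Rbp4, -0.01 for Apoc3 and 0.26 for Fetub. On the other Alb probes these rats were not equal, at -4.01 and -5.93 in DNPT replicate 2, against -6.22 and -6.62 in vehicle replicate 1, which was then the lowest of the 6 rats. Rbp4 and Fetub were close to equal in this DNPT and this vehicle rat, and Ambp, Serpinc1 and Apoc3 were higher in the DNPT rat. The choice of the genes fixed which of these rats was higher, so this cannot show a difference at equal Alb. It also sets 1 rat on slide 2 against 1 rat on slide 1. DNPT replicate 3, with the highest Alb signal, was also highest for Ambp (1.53 above the vehicle mean), Rbp4 (2.32), Apoc3 (0.60) and Fetub (1.26). For Rbp4, DNPT replicate 1 was nearly equal (2.30), and the second Rbp4 probe read 2.04 in both rats. Serpinc1 in DNPT replicate 3 was lowest of the DNPT rats on its brighter probe (0.25). On the second Serpinc1 probe that rat was the highest of all 6 (signal 2.70).

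With the Alb signal as a covariate in the fit over all features, the differences were 0.88 (SE 0.25) for Ambp, 0.29 (SE 0.08) for Serpinc1, 2.15 (SE 0.75) for Rbp4, 0.27 (SE 0.14) for Apoc3 and 0.57 (SE 0.30) for Fetub. Since a comparison with Alb was part of how the genes were chosen, these values are a description and no test. The covariate was the brightest Alb probe alone. With slide as a block, a fit in which the contrast rests on DNPT replicate 1 alone against the 3 vehicle rats, they were 0.47 (SE 0.30) for Ambp, 0.28 (SE 0.12) for Serpinc1, 2.30 (SE 1.06) for Rbp4, 0.16 (SE 0.20) for Apoc3 and 0.36 (SE 0.42) for Fetub. The values for Ambp, Apoc3 and Fetub were more than 1.5 times smaller than over both slides. Because slide 2 holds only DNPT rats, slide and treatment cannot be told apart there.

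**Figure D3:**
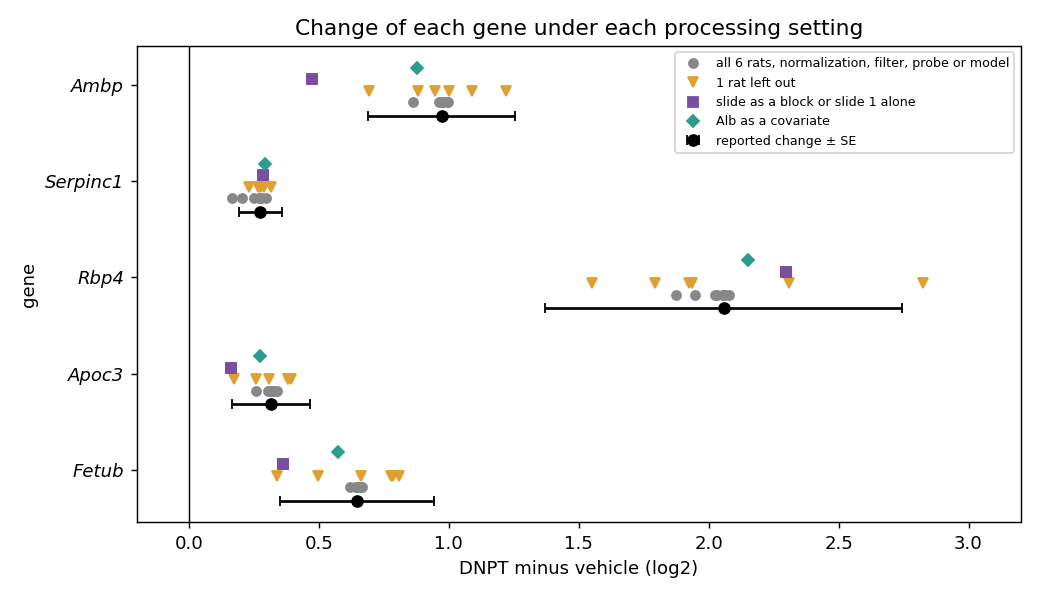
DNPT minus vehicle difference (log2, horizontal axis) of each gene under each setting, with the reported value ± SE in black. All points lie above 0, and the smallest are 0.47 for Ambp, 0.17 for Serpinc1, 1.55 for Rbp4, 0.16 for Apoc3 and 0.34 for Fetub.

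Other secreted hepatocyte products give the wider view of liver transcripts in these samples. Of 20 such genes, 18 were tested and 0 passed, and C9 and Cpb2 were too dim. The median difference was 0.71, where the median of all features was 0.01, and 14 of the 18 were positive. Yet 0 had DNPT values all above the vehicle values, against 11.9% of all features. DNPT replicate 3 was the highest of the 6 rats for 15 of the 18, and the median difference of the list from the vehicle mean was 0.01, -0.18 and 1.59 in DNPT replicates 1, 2 and 3, against -0.34, 0.39 and -0.11 in vehicle replicates 1, 2 and 3. Summed over the list on a linear scale, the signal ran from 18.8 to 66.1 times the 75th percentile in DNPT rats and from 18.4 to 24.3 in vehicle rats. Outside DNPT replicate 3, the bright genes Tf, Hrg, Plg and F2 made up most of this sum. Among vehicle rats Hrg, Plg and F2 were highest in replicate 1, while Tf was highest in replicate 2, as was Alb. The part of liver RNA in the differences of the 5 genes was not tested.

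Ttr, the transthyretin gene whose product binds the retinol-binding protein in plasma, was well above background in 2 rats of each group and read -2.64, -6.07 and 2.80 in DNPT replicates 1, 2 and 3, against -6.43, -0.02 and -2.30 in vehicle replicates 1, 2 and 3. Its rat order was that of Alb in each group. Among the DNPT rats it was also that of the brighter Rbp4 probe, where replicates 1 and 3 were nearly equal (2.56 and 2.59). Among the vehicle rats it ran opposite to Rbp4. Among the brightest members, Hrg, a histidine-rich cystatin-family protein, differed by 0.94 (SE 0.46, limma adjusted p = 0.448), and Tf, the iron carrier transferrin, by 0.43 (SE 0.37, limma adjusted p = 0.628). Plg, the plasmin precursor, was at -0.28 (SE 0.16) and F2, the prothrombin gene, at -0.03 (SE 0.27).

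Of 15 further hepatocyte genes, mostly of enzymes and transporters, 9 were tested and 0 passed (median 0.50). The 9 include Hamp, the gene of the secreted hormone hepcidin. The bile acid synthesis genes Cyp7a1 and Cyp8b1, the urea cycle gene Cps1, and Tat, Uox and Tfr2 were too dim to be tested. Slc10a1, the bile salt importer, read -2.06, -1.91 and -1.59 in DNPT rats, against -2.40, -2.38 and -2.36 in vehicle rats, a difference of 0.53 (SE 0.14, limma adjusted p = 0.354). It was the only 1 of the 9 without overlap, where 11.9% of all features lay above in that way. Asgr1, a subunit of the asialoglycoprotein receptor, differed by 0.50 (SE 0.37) and Cyp2c11, a male-specific cytochrome P450 of rat liver, by -0.96 (SE 1.01).

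**Figure D4:**
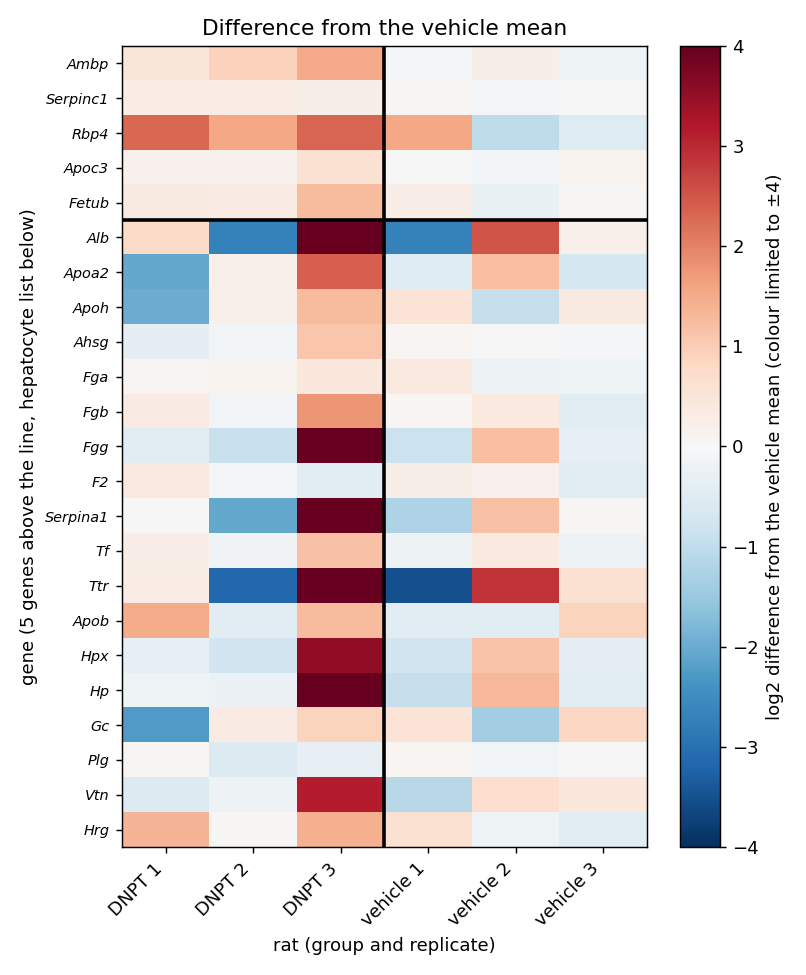
Log2 difference from the vehicle mean of each gene (rows) in each rat (columns), for the 5 genes above the line and the 18 tested hepatocyte genes below it, with colours limited to ±4. The column of DNPT replicate 3 is red for most hepatocyte genes, and the 5 genes are positive in all 3 DNPT columns.

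The partners of each gene were examined by role. Around Ambp, whose bikunin part is linked to the heavy chains of inter-alpha-inhibitor, 9 of 15 heavy chain, hyaluronan and lipocalin genes were tested. Of these, 0 passed (median -0.17) and 2 lay below without overlap, as did 8.32% of all features. The heavy chain gene Itih4 read -3.68, -5.26 and 1.10 in DNPT rats, against -4.74, -2.09 and -3.75 in vehicle rats, which is the rat order of Alb. Ptgds, a lipocalin-type prostaglandin synthase, was lower at 3.17, 3.66 and 3.94 in DNPT rats, against 4.66, 4.83 and 4.24 in vehicle rats, a difference of -0.98 (SE 0.25, limma adjusted p = 0.353). Lcn2, a lipocalin that binds siderophores and marks tubular injury, differed by -0.44 (SE 0.17, limma adjusted p = 0.406). Apom, a lipocalin of HDL, was at 0.05 (SE 0.16).

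Around Serpinc1, 21 of 28 coagulation and serpin genes were tested and 0 passed (median 0.06). Without overlap, 3 lay above and 1 below, against 11.9% and 8.32% of all features. Proc, the gene of the anticoagulant protease protein C, read 3.77, 3.92 and 4.15 in DNPT rats, against 3.15, 3.54 and 3.65 in vehicle rats, a difference of 0.50 (SE 0.17, limma adjusted p = 0.394). Pros1, the gene of its cofactor protein S, read -2.94, -2.78 and -2.79 in DNPT rats, against -2.35, -2.59 and -2.36 in vehicle rats, a difference of -0.40 (SE 0.11, limma adjusted p = 0.354). The bright members Serpinf1 (0.04, SE 0.09), Serpinf2 (0.06, SE 0.08), Serping1 (0.09, SE 0.23) and F3, the tissue factor gene (-0.0045, SE 0.17), overlapped between the groups.

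Around Rbp4, 23 of 25 retinoid genes were tested and 0 passed (median 0.08). In this list 5 genes lay above and 1 below without overlap, against 11.9% and 8.32% of all features. Rarg, a retinoic acid receptor, read 1.77, 1.79 and 1.90 in DNPT rats, against 1.35, 1.50 and 1.38 in vehicle rats, a difference of 0.41 (SE 0.09, limma adjusted p = 0.305). Bco1, which cleaves beta-carotene to retinal, differed by 0.96 (SE 0.34, limma adjusted p = 0.397). The bright members had small differences, with Aldh1a1, a retinal dehydrogenase, at 0.13 (SE 0.08), and the endocytic receptors Lrp2 (megalin) at 0.08 (SE 0.07) and Cubn (cubilin) at 0.14 (SE 0.15).

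Around Apoc3, 21 of 23 lipoprotein and lipase genes were tested and 0 passed (median 0.19). Without overlap, 3 lay above and 1 below, against 11.9% and 8.32% of all features. Lcat, which esterifies cholesterol on HDL, read -1.43, -1.58 and -1.22 in DNPT rats, against -1.76, -1.82 and -1.93 in vehicle rats, a difference of 0.43 (SE 0.12, limma adjusted p = 0.362). Vldlr, a receptor for triglyceride-rich lipoproteins, was at -0.30 (SE 0.09, limma adjusted p = 0.384). Apoa4, a neighbour of Apoc3 in the mammalian apolipoprotein gene cluster, read -2.19, -2.02 and 0.06 in DNPT rats, against -2.38, -2.32 and -2.39 in vehicle rats. The cluster genes Apoa1 (1.39, SE 0.99) and Apoa5 (0.03, SE 0.31) overlapped between the groups, as did Apoe (-0.23, SE 0.23), Angptl4, an inhibitor of lipoprotein lipase (-0.36, SE 0.36), and Lpl itself (-0.19, SE 0.15).

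Around Fetub, 11 of 12 cystatin-family and astacin genes were tested and 0 passed (median 0.04). Of these, 1 lay above without overlap, against 11.9% of all features. That gene was Astl, the ovastacin gene, at -3.05, -2.53 and -2.45 in DNPT rats, against -4.19, -3.52 and -3.13 in vehicle rats, a difference of 0.94 (SE 0.31, limma adjusted p = 0.393). Ahsg, the gene of fetuin-A and the closest relative of Fetub in the list, read -1.34, -1.07 and 0.16 in DNPT rats, against a mean of -0.95 ± 0.07 in vehicle rats (SD, n = 3), so that only DNPT replicate 3 lay above the vehicle rats. The meprin gene Mep1a was at 0.04 (SE 0.11) and Cst3, the cystatin C gene, at -0.03 (SE 0.14).

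Of 16 liver-enriched transcription factor genes, 10 were tested and 0 passed (median -0.06). Without overlap, 3 lay above, against 11.9% of all features. Ppara, the fatty acid receptor that controls several apolipoprotein genes, read 0.85, 1.02 and 0.61 in DNPT rats, against 0.11, -0.30 and -0.04 in vehicle rats, a difference of 0.91 (SE 0.16, limma adjusted p = 0.266). Nr1h4, the bile acid receptor FXR, differed by 0.27 (SE 0.08, limma adjusted p = 0.377). Hnf4a, a nuclear receptor active in both hepatocytes and proximal tubule, was at 0.12 (SE 0.20).

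**Figure D5:**
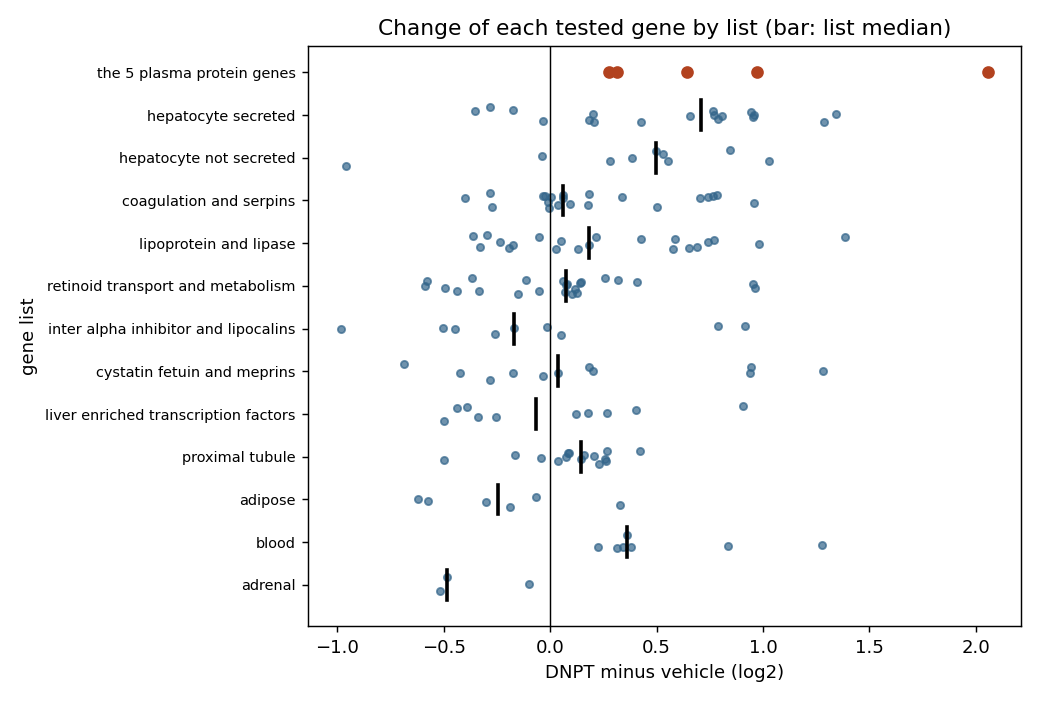
DNPT minus vehicle difference (log2, horizontal axis) of every tested gene of each list, with bars at the list medians and the 5 plasma protein genes in the top row. The 5 genes run from 0.27 to 2.06, and the list medians from -0.48 (adrenal) to 0.71 (secreted hepatocyte genes).

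Markers of the cells that the sample holds or could hold were read in the same way. All 15 proximal tubule genes were tested and 0 passed (median 0.14). Of these, 6 lay above without overlap, against 11.9% of all features. Their summed linear signal was 2502 to 2866 in DNPT rats and 2192 to 2406 in vehicle rats. Slc5a2, the glucose transporter of the early proximal tubule, differed by 0.42 (SE 0.11, limma adjusted p = 0.354), and Slc34a1, a phosphate transporter, by 0.09 (SE 0.15). In this list 12 genes were positive and 3 negative: Slc22a7 (-0.50, SE 0.68), Slc7a13 (-0.17, SE 0.81) and Aqp1 (-0.04, SE 0.14). Slc7a13 varied widely within the groups, at 3.11, 5.23 and 3.92 in DNPT rats, against 5.20, 2.77 and 4.78 in vehicle rats. All 7 tested blood genes were positive (median 0.36), 4 of them without overlap, against 11.9% of all features. Their summed signals were 711 to 796 (DNPT) and 549 to 676 (vehicle). The hemoglobin gene Hba-a1 differed by 0.34 (SE 0.12) and the erythroid chaperone gene Ahsp by 0.84 (SE 0.22, limma adjusted p = 0.356). Proximal tubule and blood sums thus moved with the 5 genes between the groups, and their part in the differences was not tested. Fat genes, relevant because adipocytes make Rbp4, summed to 1.09 to 1.68 (DNPT) and 1.14 to 1.85 (vehicle), and Lep was too dim to be tested. Adipoq, the adipocyte hormone gene, differed by -0.19 (SE 0.14). Of 7 adrenal genes only Cyp17a1, Cyp11a1 and Th were tested, with summed signals of 2.16 to 4.01 (DNPT) and 3.68 to 4.25 (vehicle). Th alone made up most of these sums, and Cyp11a1 was well above background in only 1 DNPT rat.

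Likeness to other genes was measured as the root mean square difference over the 6 rats between log2 signals centred on their own mean, among 12675 named genes. A pattern shared with the genes named here is thus part of how they were picked. Ambp was most like Bco1 (0.11), Prap1 (0.16) and Cacng6 (0.18). Bco1 read -5.02, -4.58 and -3.71 in DNPT rats, against -5.53, -5.21 and -5.45 in vehicle rats, the same stepwise order of DNPT rats as Ambp. Serpinc1 was most like Pdpr, Slc4a3 and Slc39a5 (0.03 each), Apoc3 most like Iqcg (0.05), Hykk (0.06) and Ccsap (0.07), and Fetub most like Or5b95 (0.10), Ephx2 and Igfbp6 (0.11 each). Bco1, Cacng6, Or5b95 and Igfbp6 were dim, at -3.68 or lower in every rat, which limits what their likeness can show.

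Rbp4 had looser companions, at 0.48 for Incenp, 0.54 for Kng2l1 and 0.62 for Resp18. Kng2l1 read -2.33, -2.42 and -1.44 in DNPT rats, against -2.33, -3.96 and -3.75 in vehicle rats, and Resp18 read 4.10, 3.45 and 4.43 in DNPT rats, against 3.38, -0.71 and 0.61 in vehicle rats. All 3 shared with Rbp4 a vehicle replicate 1 that stood with or near the DNPT rats and 2 other vehicle rats far below. This follows from their choice by likeness over the same rats. Alb lay at 2.69 from Ambp, 2.97 from Serpinc1, 3.22 from Rbp4, 2.84 from Apoc3 and 2.76 from Fetub, ranks of 12662 or more of 12675, a measure to which the wide range of Alb itself contributes.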

How the data were processed

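Spots were quantified in Agilent Feature Extraction 10.7, per the submitters' processing notes. The authors deposited scanner files with a linear intensity for each spot, and, per the file headers, these hold a processed, a median and a background-subtracted signal. The steps behind the processed signal are not given in the columns used here. Values in the deposited table are a linear ratio, the processed signal over 1 constant per array (100% of brighter spots within 0.5% of a single factor), with column medians of 0.112 to 0.116 and no centring. No label says how that table was made.

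Control spots and 113 flagged values were left out. The processed signal was divided by the 75th percentile of its array, and its log2 was fitted with limma 3.58.1 in R 4.3.3 (lmFit, eBayes, two-sided, Benjamini-Hochberg over 34915 features). A probe needed a signal well above background on at least 3 of 6 arrays, and 2 values per group. Names came from the GRCr8 RefSeq gene table, joined on unversioned accessions (names only): 28206 probes matched 1 gene, 0 several and 33331 none. The brightest tested probe stood for a gene. The number of arrays limits the precision.

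The 5 genes and the 12 lists were chosen with earlier results of these data known. The rule named the 5 genes, Alb, list members that passed or else the 4 brightest and the 2 with the smallest p, and the 3 genes most like each of the 5. Other genes named were chosen after their values were seen, and some genes that the rule names are not reported here. Lists share genes, with 178 distinct genes, of which 140 were tested. The files lack a mean spot signal, so the median was used for normexp (offset 50). Tables and plots used Python 3.11.15, pandas 2.3.3 and matplotlib 3.10.9.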

Additional observations from a re-analysis of the deposited data

How the results depend on the processing

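Over 19 alternatives, Rbp4, Apoc3 and Fetub moved by less than 1 SD between rats (pooled within groups). That SD was 1.01 for Rbp4 and 0.42 for Fetub but 0.06 for Serpinc1, so the measure is lenient for genes that vary between rats. Apoc3 still fell from 0.32 to 0.16 and Fetub from 0.64 to 0.34 at the lowest. All 5 genes kept their direction. The choice of the genes fixed that direction with 1 rat left out, on slide 1 alone and with slide as a block. The Ambp difference was 0.47 with slide as a block and on slide 1 alone, against 0.97 over all rats. The Serpinc1 difference was 0.17 with quantile normalization and 0.20 with normexp and quantile normalization. Leaving out 1 rat gave 0.69 to 1.22 for Ambp, 0.23 to 0.32 for Serpinc1, 1.55 to 2.83 for Rbp4, 0.17 to 0.39 for Apoc3 and 0.34 to 0.81 for Fetub. Alb ran from -0.96 to 3.28, and on its brightest probe was below 0 without DNPT replicate 3 (-0.96) and without vehicle replicate 1 (-0.06). With replicate number as a block (replicate block) the Ambp difference was 0.97, and 0 features were called. Same-numbered rats did not deviate together (correlations of deviations -0.18, -0.06 and -0.18), so the numbers give no pairing. Calls over all features were 0, except 5 with normexp and quantile normalization, 1 each with the slide block and with slide 1 only, 3 without vehicle replicate 2 and 620 without DNPT replicate 1 (0 to 620 with 1 rat left out). None of the 5 genes and none of the 140 tested list genes was among them. The cause of these shifts was not tested. With 3 rats a group on unbalanced slides, small differences such as those of Serpinc1 and Apoc3 rest on few arrays.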
